A study of Homo sapiens with 29 samples.

Results

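The 10 genes described here make, reduce, use or break down glutathione, and they were taken by name from a table of 23710 gene symbols: GCLC, GCLM and GSS (synthesis), SLC7A11 (cystine import), GSR (reduction), GPX1, GPX2 and GPX4 (peroxidases), and CHAC1 and GGCT (breakdown). All 10 are in the table. RNA sequencing covered 27 of the 29 samples, in 9 groups of 3 libraries. H460 and H2122 are established human lung cancer cell lines. H460 cells carried a short hairpin RNA (sh) against GFP (shGFP, the control), NRF2 (shNRF2), NR0B1 (shNR0B1) or SNW1 (shSNW1) for 72 h. H2122 cells carried shGFP or shNRF2 for 24 h, so line and time of knockdown cannot be told apart. In a separate set of columns, H460 cells grown in RPMI with 10% serum received DMSO, 30 µM BPK29 or 30 µM BPK9 for 12 h. BPK29 and BPK9 are compounds known here only by their code names. The labels name no more than the target of each hairpin, and they do not say that the 3 libraries of a group came from separate cultures, so p-values measure the spread between libraries, which may be technical. The NR0B1 chromatin immunoprecipitation and its input were not analysed here.

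Glutathione is a tripeptide of glutamate, cysteine and glycine and the most abundant small thiol of most cells. Cystine enters through SLC7A11, the exchanger subunit of system xc-. Glutamate-cysteine ligase joins glutamate to cysteine in the rate-limiting step, with GCLC as its catalytic and GCLM as its modifier subunit, and glutathione synthetase (GSS) adds glycine. Glutathione peroxidases spend glutathione on peroxides, and glutathione reductase (GSR) restores it with NADPH. CHAC1 cleaves glutathione inside the cell, and GGCT releases 5-oxoproline from gamma-glutamyl amino acids. NRF2, encoded by NFE2L2 and held down by KEAP1, is the classical activator of this set through antioxidant response elements. H460 and H2122 both carry KEAP1 mutations, which keep NRF2 active. NR0B1 is an orphan nuclear receptor without a DNA-binding domain of its own, and SNW1 is a transcription and splicing cofactor.

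Reference promoters were available for 6 of the 10 genes (RefSeq, build GRCh38.p14, 250 bases before to 50 after the annotated start). GSS, GSR, SLC7A11 and GGCT had no entry. Both strands were searched for TGACNNNGC, the core of the antioxidant response element, and for TTGCATCA, a composite site of the kind bound by CEBP and ATF proteins such as ATF4. The first occurs in 13.3% of 35116 reference promoters and matched GCLM and GPX2. These are 2 of the 3 members that fell most under the NRF2 hairpin in H2122, and the third, GSR, could not be searched. GCLC, which also fell there, matched neither motif, nor did GPX1 and GPX4, which rose there. Of the 3 members that fell most in H460, GCLM matched, CHAC1 did not match this first motif, and GSR could not be searched. GPX2 was too low to test in H460. The second motif occurs in 0.866% and matched CHAC1. It is 1 of 3 members called in opposite directions under the NRF2 hairpin in the 2 lines. Of the other members so called, SLC7A11 could not be searched and GPX4 had no match. The motifs were chosen after the values had been seen, and no link of a match to a response was tested. A match is a string of letters and not a measured binding site, and the capitals below mark it in the 250 bases before each start. GCLM lies on the minus strand (chr1:93909431-93909680 for the printed bases), with the match 34 to 26 bases before the start. GPX2 lies on the minus strand (chr14:64942746-64942995), with the match 122 to 114 bases before the start. CHAC1 lies on the plus strand (chr15:40953221-40953470), with the match 209 to 202 bases before the start.
GCLM: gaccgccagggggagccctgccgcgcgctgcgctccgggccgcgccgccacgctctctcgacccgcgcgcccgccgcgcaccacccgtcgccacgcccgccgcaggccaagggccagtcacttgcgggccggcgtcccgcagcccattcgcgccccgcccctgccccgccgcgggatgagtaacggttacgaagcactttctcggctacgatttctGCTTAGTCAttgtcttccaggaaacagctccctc
GPX2: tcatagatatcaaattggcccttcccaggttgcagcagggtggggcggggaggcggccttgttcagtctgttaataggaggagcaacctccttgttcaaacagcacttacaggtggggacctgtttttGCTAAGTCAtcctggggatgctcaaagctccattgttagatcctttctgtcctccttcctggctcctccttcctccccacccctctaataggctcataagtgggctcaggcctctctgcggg
CHAC1: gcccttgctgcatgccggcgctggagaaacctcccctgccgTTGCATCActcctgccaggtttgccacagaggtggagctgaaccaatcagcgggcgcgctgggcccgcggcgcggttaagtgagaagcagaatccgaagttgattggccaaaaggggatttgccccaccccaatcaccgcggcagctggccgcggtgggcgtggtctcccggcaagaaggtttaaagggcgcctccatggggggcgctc

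Sequencing depth, recovered as whole reads from the table, was 16709805 to 24613353 in the knockdown set and 19111925 to 24871092 in the compound set. NFE2L2 fell from 58.5 ± 1.01 to 26.6 ± 0.852 FPKM under shNRF2 in H2122 and from 43.3 ± 1.54 to 26.8 ± 1.04 in H460 (SD, n = 3 each; FPKM is the deposited unit, reads scaled to transcript length and library depth). NR0B1 fell from 47.6 ± 1.69 to 18.2 ± 0.924 under its own hairpin, and SNW1 from 51.2 ± 1.65 to 32.2 ± 1.77. NR0B1 also fell under shNRF2, to 9.06 ± 0.27 in H460 and from 18.7 ± 1.17 to 0.966 ± 0.04 in H2122. Of 5 epithelial markers, 5 reached 1 FPKM in H2122 shGFP and 3 in H460 shGFP. Their summed level was 2566 to 2580 FPKM in H2122 shGFP against 3884 to 4012 in H2122 shNRF2, and 1972 to 2249 in H460 shGFP against 1198 to 1223 in H460 shNR0B1. The 5 immune markers summed to 1.22 to 1.39 FPKM in H2122 shGFP and 10.1 to 10.9 in H2122 shNRF2, with CD3E at 0 in all 6 knockdown groups. The 5 fibroblast and endothelial markers summed to 7.17 to 7.89 FPKM in H460 shGFP and at most to 16.6 in any knockdown group. The part of these shifts in the results below was not tested. Each is a bulk library of a single cell line. A change in the share of cells that express a marker and one of RNA per cell cannot be told apart in it.

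In H2122 cells the NRF2 hairpin lowered 7 of the 10 genes and raised 3. Synthesis, import, reduction, GPX2 and GGCT were lower, while GPX1, GPX4 and CHAC1 were higher. The test was limma on log2(FPKM + 1) over every gene that reached 1 FPKM in 3 or more libraries, with Benjamini-Hochberg adjustment and a threshold of 0.05, and every fold change below labelled log2 is on that scale. Most genes in these cells passed that test, 48.8% of 11710 as higher and 38.5% as lower, so the number of members called is itself close to the background. Of the 10 members, 3 were higher and 6 lower by at least 1.5 fold, against 22.3% and 19.5% of all genes. The median log2 fold change of the members was -0.90, beside 0.09 over all genes tested.

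GCLM, the modifier subunit, stood at 118, 119 and 114 FPKM in H2122 cells with shGFP and at 16.1, 16.8 and 15.7 with shNRF2. The 2 groups are far apart, a 7.23-fold difference of means (log2 fold change -2.78, SE 0.031, limma adjusted p = 9.56e-12). GCLC, the catalytic subunit, fell from 62.9, 61.2 and 60.0 to 25.4, 25.6 and 26.6 FPKM (log2 fold change -1.22, SE 0.029, limma adjusted p = 3.09e-10). The modifier thus lost more transcript than the catalytic subunit. GSS, the second enzyme of synthesis, was at 46.1, 47.4 and 46.4 FPKM with shGFP and 43.2, 42.1 and 42.1 with shNRF2. That step is small though the groups do not overlap (log2 fold change -0.13, SE 0.025, limma adjusted p = 6.42e-04), and its sign turned when libraries were rescaled to a common total (log2 fold change 0.01). That rescaling also moved the median of all genes from 0.09 to 0.22.

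GSR, the reductase, dropped from 329, 321 and 324 FPKM to 103, 104 and 99.9 in H2122 (log2 fold change -1.66, SE 0.023, limma adjusted p = 2.26e-11). SLC7A11 went from 119, 122 and 119 FPKM to 78.9, 83.6 and 75.3 (log2 fold change -0.59, SE 0.036, limma adjusted p = 1.63e-07). Every knockdown library was below every control library for both genes, and SLC7A11 had the smaller fold.

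The 3 peroxidases did not move together in H2122. GPX2, an epithelial peroxidase best known from the gut, was the most abundant member of the whole set in control libraries, at 331, 345 and 342 FPKM, and fell to 118, 111 and 121 under shNRF2 (log2 fold change -1.53, SE 0.032, limma adjusted p = 1.56e-10). GPX1, the ubiquitous cytosolic peroxidase, rose from 114, 117 and 121 to 177, 185 and 194 FPKM (log2 fold change 0.66, SE 0.035, limma adjusted p = 6.71e-08). GPX4, which reduces lipid hydroperoxides in membranes, rose from 76.0, 81.4 and 80.6 to 121, 121 and 130 FPKM (log2 fold change 0.64, SE 0.036, limma adjusted p = 9.66e-08). The order of the mean levels was therefore GPX2, GPX1, GPX4 in control cells and GPX1, GPX4, GPX2 after knockdown, with no overlap between neighbours among these 3 in either group.

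The breakdown enzymes went opposite ways in H2122. CHAC1 was at 2.29, 2.25 and 2.60 FPKM in the control (75 to 92 reads) and at 12.1, 10.6 and 10.3 with shNRF2 (330 to 411 reads), a 4.63-fold rise of the mean (log2 fold change 1.83, SE 0.066, limma adjusted p = 4.38e-09). GGCT fell from 97.6, 94.2 and 93.6 to 39.7, 38.5 and 39.7 FPKM (log2 fold change -1.25, SE 0.026, limma adjusted p = 1.46e-10). No library of one group reached into the other for either gene.

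**Figure D1:**
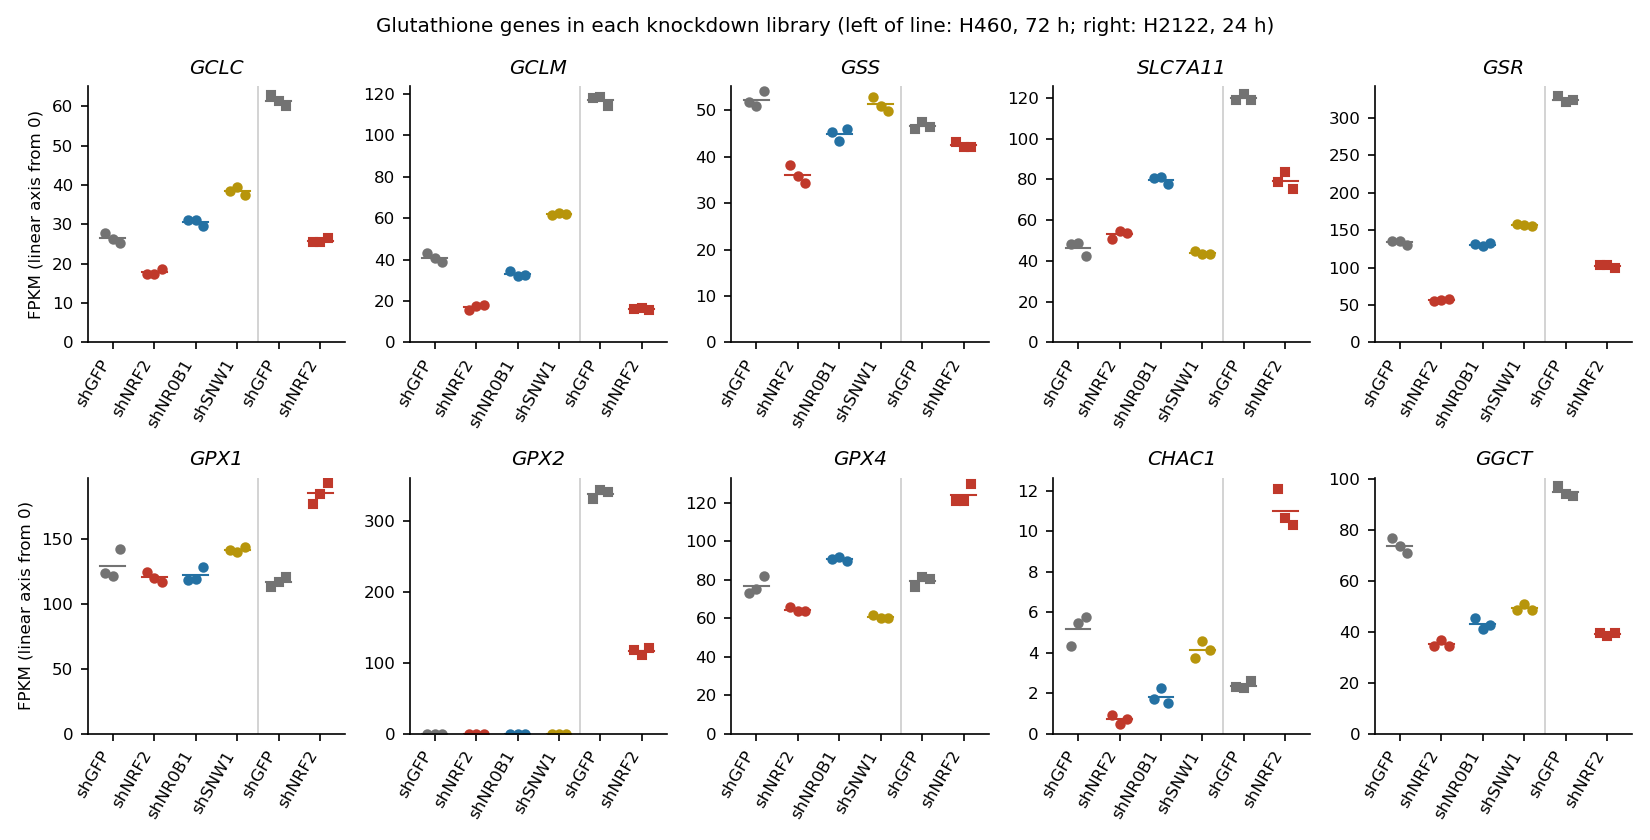
FPKM of each of the 10 genes in every knockdown library, on linear axes from 0. Points are libraries (circles H460, squares H2122) and short lines are means of 3. GCLM, GSR and GGCT are lowest under shNRF2 in both lines, whereas CHAC1 falls to 0.722 FPKM on average in H460 and rises to 11.02 in H2122. GPX2 is near 0 in all H460 libraries.

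In H460 cells the NRF2 hairpin lowered 7 of the 9 members tested and raised 1. GPX2 was too low to test. The background was again broad, with 40.9% of 11938 genes higher and 39% lower. By at least 1.5 fold, 4 members were lower and 0 higher, against 14.9% and 16.5% of all genes. The members' median log2 fold change was -0.54, beside 0.01 over all genes.

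GCLM fell from 43.0, 40.6 and 38.6 to 15.8, 17.5 and 18.03 FPKM in H460 (log2 fold change -1.21, SE 0.05, limma adjusted p = 4.37e-11), and GSR from 136, 136 and 130 to 55.9, 56.7 and 57.5 (log2 fold change -1.23, SE 0.028, limma adjusted p = 2.75e-13). These 2 genes and GGCT fell by more than 2 fold in both lines. GGCT went from 76.8, 74.01 and 71.0 to 34.4, 36.9 and 34.4 FPKM (log2 fold change -1.05, SE 0.044, limma adjusted p = 4.84e-11). GCLC changed less, from 27.7, 26.4 and 25.2 to 17.5, 17.4 and 18.7 FPKM (log2 fold change -0.54, SE 0.043, limma adjusted p = 4.50e-08). GSS, nearly level in H2122, fell here from 51.8, 51.0 and 54.3 to 38.2, 35.9 and 34.3 FPKM (log2 fold change -0.52, SE 0.043, limma adjusted p = 5.62e-08).

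SLC7A11 was slightly higher under the NRF2 hairpin in H460, at 50.7, 54.7 and 53.9 FPKM against 48.3, 49.0 and 42.3 in control (log2 fold change 0.19, SE 0.05, limma adjusted p = 3.61e-03). CHAC1 fell from 4.35, 5.45 and 5.75 FPKM (154 to 176 reads) to 0.934, 0.49 and 0.742 (13 to 23 reads), a 7.18-fold drop of the mean (log2 fold change -1.84, SE 0.119, limma adjusted p = 4.61e-09). GPX4 fell from 73.2, 75.0 and 82.1 to 65.9, 63.5 and 63.8 FPKM (log2 fold change -0.25, SE 0.039, limma adjusted p = 4.18e-05). These 3 genes thus moved against their direction in H2122, without overlap between knockdown and control libraries in either line. The share of all genes that did the same was not counted. For GPX1 the groups overlapped, at 117 to 125 FPKM under shNRF2 and 122 to 142 in control (log2 fold change -0.10, limma adjusted p = 0.112); without H460 shGFP replicate 2 it was called lower (-0.14).

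The difference between the 2 lines in their response to shNRF2 was tested directly as an interaction term over 12 libraries. All 9 members that reached 1 FPKM in both lines passed. Of 12798 genes, 37.4% differed in the positive direction (response more positive in H2122) and 34.3% in the negative. CHAC1 had the largest difference of the members, 3.67 on the log2 scale (SE 0.145, limma adjusted p = 2.03e-10). GPX4 and GPX1 differed by 0.88 (SE 0.063, limma adjusted p = 5.08e-08) and 0.75 (SE 0.077, limma adjusted p = 1.56e-06); both were called higher in H2122, while in H460 GPX4 was called lower and GPX1 was not called. GCLM fell further in H2122, by a difference of -1.58 (SE 0.07, limma adjusted p = 6.25e-10), as did SLC7A11 by -0.78 and GCLC by -0.68. GGCT differed least, by -0.20 (SE 0.052, limma adjusted p = 3.39e-03). GPX2 passed the filter through its H2122 libraries and had 0 to 3 reads in these H460 libraries, so its term of -1.46 carries no information on a response in H460.

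The ratio of GCLC to GCLM transcript, which needs no scaling between libraries, followed from these unequal steps. It was 0.533, 0.516 and 0.525 in the H2122 control libraries and 1.58, 1.53 and 1.70 under shNRF2, 3.05 times the control mean. In H460 it was 0.644, 0.649 and 0.652 in control and 1.11, 0.992 and 1.04 under shNRF2. Under shNR0B1 it was 0.907, 0.969 and 0.908, and under shSNW1 0.627, 0.631 and 0.604. None of these 4 knockdown groups overlapped its control, and each gave an exact two-sided permutation p of 0.1, the smallest that 3 libraries against 3 allow.

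The NR0B1 and SNW1 hairpins in H460 were compared with the same shGFP libraries as the NRF2 hairpin, so values are set side by side without any count of agreement. The NR0B1 hairpin raised 3 of 9 members and lowered 4, where 33.1% of 11938 genes were higher and 36.8% lower (3946 and 4391 genes, and 5293 and 3050 on a common total). At 1.5 fold or more, 1 was higher and 2 lower, beside 6.94% and 7.15% of all genes. SLC7A11 rose from 48.3, 49.0 and 42.3 to 80.7, 81.4 and 77.6 FPKM (log2 fold change 0.77, SE 0.05, limma adjusted p = 1.66e-08). That was the highest SLC7A11 level of the 4 H460 groups. CHAC1 fell to 1.74, 2.27 and 1.51 FPKM (54 to 78 reads; log2 fold change -1.12, SE 0.119, limma adjusted p = 1.71e-06) and GGCT to 45.4, 41.3 and 42.8 (log2 fold change -0.76, SE 0.044, limma adjusted p = 4.33e-09).

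The remaining members moved less under shNR0B1. GCLM fell to 34.3, 32.1 and 32.5 FPKM (log2 fold change -0.30) while GCLC rose to 31.1, 31.1 and 29.5 (log2 fold change 0.21), so the 2 subunits of one enzyme went opposite ways. GPX4 rose to 90.9, 91.8 and 90.0 FPKM (log2 fold change 0.24), and GSS fell to 45.3, 43.4 and 45.9 (log2 fold change -0.22; on a common total the limma adjusted p was 0.0584). GSR had a log2 fold change of -0.04 (limma adjusted p = 0.273), which became 0.09 (limma adjusted p = 0.0176) under that rescaling. GPX1 overlapped its control (log2 fold change -0.08, limma adjusted p = 0.198).

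Under the SNW1 hairpin 4 of 9 members were higher and 2 lower, where 30.8% of genes were higher and 36.4% lower (3671 and 4349 genes, and 4758 and 3345 on a common total). GCLM rose to 61.5, 62.6 and 62.1 FPKM (log2 fold change 0.60, SE 0.05, limma adjusted p = 1.87e-07), GCLC to 38.6, 39.5 and 37.5 (log2 fold change 0.53, SE 0.043, limma adjusted p = 1.55e-07) and GSR to 158, 157 and 156 (log2 fold change 0.23, SE 0.028, limma adjusted p = 9.63e-06). Each stood above every control library. Only GCLM among the members passed 1.5 fold on the log2(FPKM + 1) scale, as an increase, where 5.43% of all genes were higher and 6.88% lower by that much. GGCT fell to 48.5, 50.9 and 48.8 FPKM (log2 fold change -0.57, SE 0.044, limma adjusted p = 8.32e-08) and GPX4 to 61.6, 60.1 and 60.4 (log2 fold change -0.33, SE 0.039, limma adjusted p = 4.73e-06).

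GPX1 was called higher under shSNW1 at 142, 141 and 144 FPKM against 124, 122 and 142, although the groups overlap (log2 fold change 0.14, SE 0.053, limma adjusted p = 0.0315). This call was lost without H460 shGFP replicate 1 (adjusted p = 0.116), without H460 shGFP replicate 2 (0.14), without any single shSNW1 library (0.0507 to 0.0822) and without the filter on low values (0.0613). CHAC1 had a log2 fold change of -0.26 (limma adjusted p = 0.0674) and SLC7A11 one of -0.08 (limma adjusted p = 0.174). CHAC1 passed at -0.36 without H460 shGFP replicate 1 and at -0.32 without H460 shSNW1 replicate 2, and SLC7A11 passed at -0.15 without H460 shGFP replicate 3. GSS was level within the spread of the libraries (log2 fold change -0.03, limma adjusted p = 0.577).

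**Figure D2:**
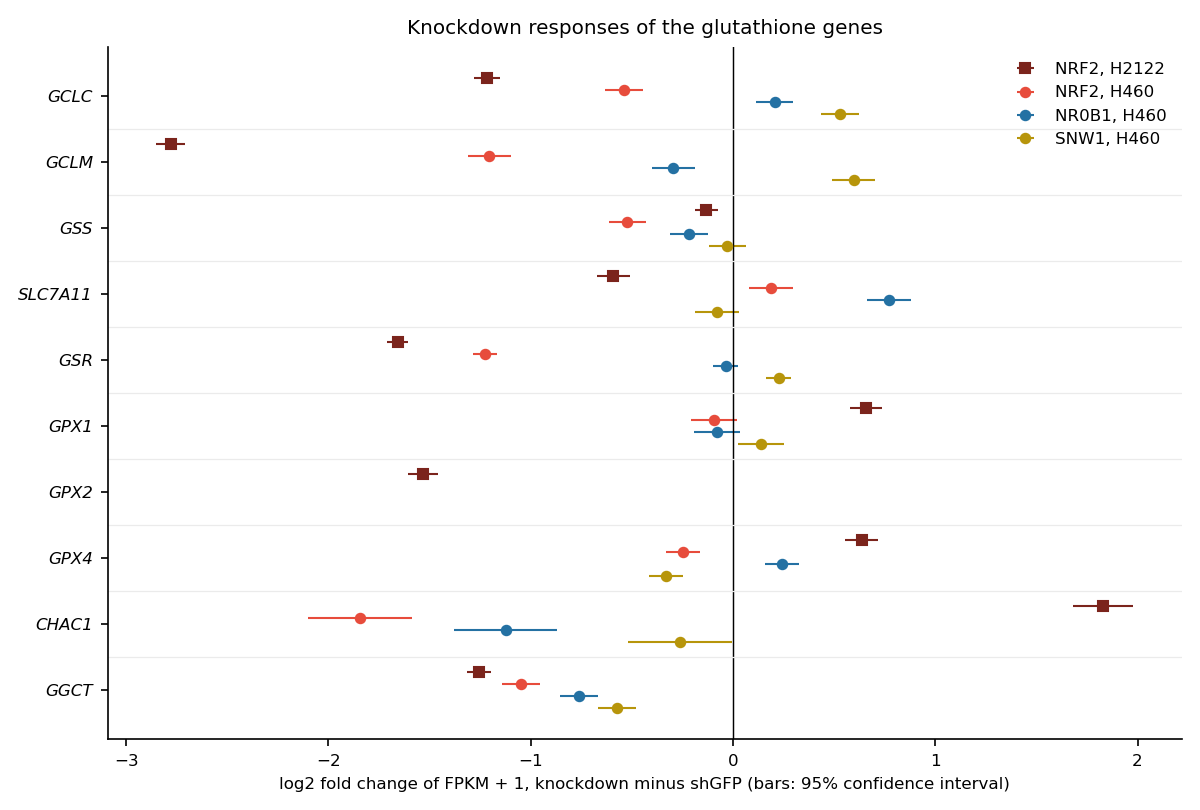
Log2 fold change of FPKM + 1, hairpin minus shGFP, for each gene in the 4 knockdowns; bars are 95% confidence intervals and no bar is drawn for GPX2 in H460. GGCT lies at -1.25 and -1.05 under shNRF2 in H2122 and H460, -0.76 under shNR0B1 and -0.57 under shSNW1, while CHAC1 lies at 1.83 in H2122 and -1.84 in H460.

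The hairpins were also compared with one another. Against shNR0B1, shNRF2 libraries were lower in 8 of 9 members (36.7% of all genes were lower and 37.8% higher), with GSR at -1.19, GCLM at -0.91, GCLC at -0.74, CHAC1 at -0.72 and SLC7A11 at -0.58 on the log2 scale. GPX1 did not pass. Against shSNW1, shNRF2 libraries were lower in 7 and higher in 1 (39.1% and 39.6% of all genes), with GCLM at -1.80, CHAC1 at -1.58 and GSR at -1.45, and SLC7A11 higher at 0.27. Between shNR0B1 and shSNW1, 2 members were higher under shNR0B1, SLC7A11 (0.85) and GPX4 (0.57), and 7 were lower, with 34.7% of genes higher and 33.1% lower.

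With the control hairpin alone, 9 of the 10 members were called different between the 2 lines. Of 12798 genes, 44.4% were higher in H2122 and 41.1% lower, so this number is close to the background. GPX2 is among the 9 and passed the filter only through its H2122 libraries. GPX2 had 33615 reads over the 3 H2122 control libraries and 7 over the 3 H460 control libraries, a ratio of 4761 per read sequenced (95% interval 2311 to 11843, exact and for counting error only). Libraries with 0 reads of GPX2 allow up to 3, which is 0.134 to 0.175 RPM (reads scaled to library depth) in the 5 such knockdown libraries. Next came GCLM (log2 fold change 1.501), SLC7A11 (1.35), GSR (1.27) and GCLC (1.19), each higher in H2122 in 3 of 3 libraries. CHAC1 was lower in H2122 (log2 fold change -0.87) and GGCT slightly higher (0.36). GSS and GPX1 were called lower in H2122 (-0.16 and -0.14), and both turned sign, to 0.02 and 0.05, on rescaling to a common total, which moved the median of all genes from 0.03 to 0.19. The GPX1 call was also lost without H460 shGFP replicate 3, without H2122 shGFP replicate 1 or 2, and without the filter on low values. GPX4 at 79.3 ± 2.89 in H2122 and 76.7 ± 4.69 FPKM in H460 (SD, n = 3) did not pass; it was called higher in H2122 on a common total (0.23) and without H460 shGFP replicate 3 (0.10). After shNRF2 the H2122 libraries held 16.2 ± 0.571 FPKM of GCLM, beside 17.1 ± 1.17 in H460 shNRF2.

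Within H460 control libraries the mean level per length ran from GSR (134 FPKM) and GPX1 (129), whose ranges overlap, through GPX4 (76.7) and GGCT (73.9), which also overlap, to GSS (52.3), then SLC7A11 (46.5) and GCLM (40.7), which overlap, GCLC (26.4), CHAC1 (5.18) and GPX2 (0.0788). Within H2122 control libraries GPX2 (339) and GSR (325) led, followed by SLC7A11 (120), GPX1 (117) and GCLM (117) with overlapping ranges, then GGCT (95.1), GPX4 (79.3), GCLC (61.4), GSS (46.7) and CHAC1 (2.38). The peroxidases thus took the first place in H2122 through a gene that was last in H460.

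The rest of the pathway was read from lists of related genes. Of NADPH supply, the enzymes that feed GSR, 6 of 6 were lower under shNRF2 in H2122 (median log2 fold change -1.10), where 38.5% of all genes were lower and their median was 0.09. In H460 6 of 6 were lower (-0.72), where 39% of all genes were lower and their median was 0.01. Among the steepest in H2122 were ME1, malic enzyme, from 87.5 to 20.7 FPKM (log2 fold change -2.03), and TKT, transketolase, from 489 to 170 (-1.52). In H460 they were ME1 (-0.93), TKT (-0.89) and IDH1 (-0.75). Under shNR0B1 the same list had 4 of 6 higher and none lower (median 0.34), among them PGD (0.48) and TKT (0.37), and under shSNW1 3 were higher and 1 lower (median 0.12). The median of all genes was -0.02 under shNR0B1 and -0.03 under shSNW1, with 33.1% and 30.8% of genes higher.

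Among 9 genes of cysteine and glutamate supply, 8 were tested in each knockdown. Of all genes, 38.5% were lower and 48.8% higher under shNRF2 in H2122, and 39% and 40.9% in H460. In H2122 shNRF2, 7 were lower, among them SLC1A5, a glutamine transporter (log2 fold change -1.61), and 1 was higher, the glutamate and cysteine transporter SLC1A1, from 4.33 to 18.6 FPKM (1.88). In H460 shNRF2, 6 were lower, with CBS, which makes cystathionine, at -1.05 and SLC1A5 at -0.93, and 2 higher, led by SLC1A1 at 1.11. Under shNR0B1, SLC3A2, the partner chain of SLC7A11, rose from 77.2 to 147 FPKM (0.92), AHCY fell (-0.81) and CBS rose (0.55). Under shSNW1 no gene of this list passed 1.5 fold.

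Of 7 other breakdown enzymes tested in H2122 shNRF2, 5 were higher and 2 lower, where 48.8% and 38.5% of all genes were. Of 6 tested in H460 shNRF2, 4 were higher and 1 lower, where 40.9% and 39% of all genes were. CHAC2, the constitutive relative of CHAC1, fell under shNRF2 in both lines, from 22.2 to 5.88 FPKM in H2122 (log2 fold change -1.76) and from 20.003 to 5.89 in H460 (-1.62), and GGT7 rose in both, by 1.34 and 1.45. In H2122 CHAC1 and CHAC2 therefore moved in opposite directions. All 4 glutaredoxins were lower under shNRF2 in H2122 (median -0.74, where 38.5% of all genes were lower) and in H460 (median -0.40, where 39% were lower), with GLRX3 at -0.93 and -0.86. In the list for aldehyde removal, GLO1, the first glyoxalase, fell by 1.23 in H2122 and by 1.65 in H460 on the log2 scale, while HAGH, the second, rose by 0.58 and 0.66. Among other glutathione peroxidases GPX3, the plasma form, fell by 0.37 on the log2 scale in both lines and GPX8 rose (0.43 in H2122 and 0.44 in H460), while GPX5, GPX6 and GPX7 were too low to test. Of the 4 transport genes, SLC25A39, a mitochondrial glutathione importer, fell from 184 to 79.7 FPKM in H2122 and from 110 to 85.3 in H460. Among 5 genes of selenocysteine insertion, which GPX1, GPX2 and GPX4 need, 3 were higher and 1 lower in H2122 shNRF2, led by SECISBP2 (1.14), and 2 higher and 1 lower in H460, where 48.8% and 40.9% of all genes were higher.

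Under shNR0B1, 33.1% of all genes were higher and 36.8% lower, and under shSNW1 30.8% and 36.4%. Glutaredoxins had 1 higher and 3 lower under shNR0B1 and 2 higher and 1 lower under shSNW1, and aldehyde removal had 1 higher and 3 lower under each. The other peroxidases had 1 higher, GPX3 (0.85), and 1 lower, GPX8 (-0.58), under shNR0B1, while both were lower under shSNW1 (GPX3 at -0.19 and GPX8 at -0.56). CHAC2 was at -0.56 under shNR0B1 and -0.63 under shSNW1, and OPLAH, which opens the 5-oxoproline released by GGCT, at 0.59 and 0.67.

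Regulators were examined beside CHAC1, a known target of the ATF4 and DDIT3 stress response. ATF4 fell from 233 to 114 FPKM under shNRF2 in H460 (log2 fold change -1.02) and was 101 and 107 FPKM in H2122 control and shNRF2 libraries (0.08, limma adjusted p = 0.037; named after its values were seen). TRIB3, another target of that response, fell in both lines (-1.46 in H460 and -1.25 in H2122). BACH1, a repressor at antioxidant response elements, rose in H2122 from 11.6 to 44.1 FPKM (1.84). DDIT3 rose under shNRF2 in both lines, from 5.31 to 12.2 FPKM in H2122 (1.07) and from 7.96 to 10.7 in H460 (0.39, limma adjusted p = 3.27e-04; its values under shNRF2 and shNR0B1 are given after they were seen), where CHAC1 fell. DDIT3 was also higher under shNR0B1 (0.36) and shSNW1 (0.99) in H460. Of 8 regulators, 4 were higher and 4 lower under shNRF2 in H2122, where 48.8% and 38.5% of all genes were. In H460 3 were higher and 5 lower (40.9% and 39% of all genes). Under shNR0B1, where CHAC1 fell too, 5 were higher and 0 lower (33.1% and 36.8% of all genes). Neither ATF4 nor TRIB3 was thus called lower there. A link of these regulators to CHAC1 was not tested.

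**Figure D3:**
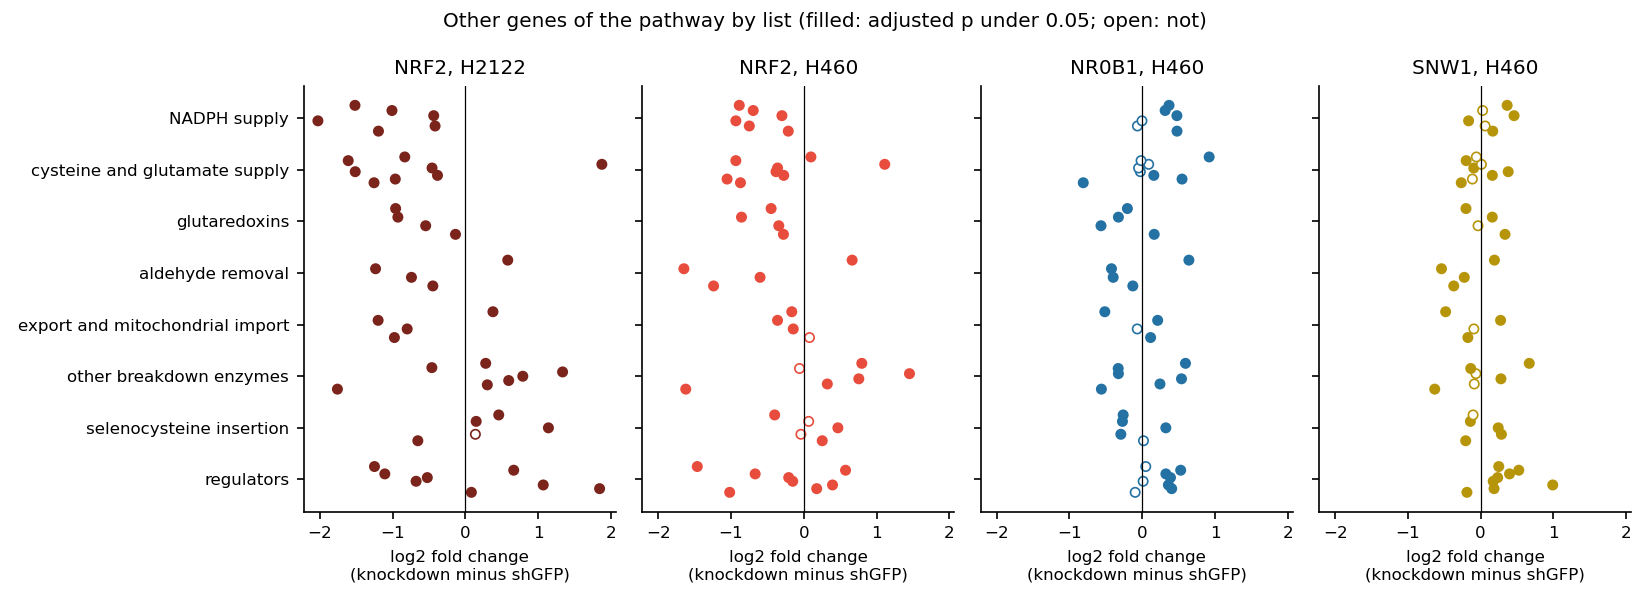
Log2 fold change of FPKM + 1, hairpin minus shGFP, for each tested gene of 8 related lists (rows) in the 4 knockdowns (panels); filled points passed an adjusted p of 0.05 and open points did not. The NADPH supply genes all lie left of 0 in the 2 NRF2 panels, with medians of -1.10 and -0.72, and their median is 0.34 in the NR0B1 panel.

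Across the 18 knockdown libraries the genes whose log2(FPKM + 1) tracked a member most closely were named by Pearson's r over 12937 other genes; the libraries fall into 2 lines and 6 groups, so these values describe group patterns. SLC7A11 was closest to SLC3A2 (r = 0.987), its partner chain, then LIMK1 (0.962), WNT5A (0.953), PNKD (0.952) and GLIPR1 (0.95). SLC3A2 ranged from 71.1 to 265 FPKM over those libraries. GCLM was closest to UTP6 (0.989), LOC344887 (0.987), SQSTM1 (0.984), DHX9 (0.984) and UPP1 (0.983). CHAC1 was closest to TGIF1 (0.976), SERPINB1 (0.97), MFAP1 (0.959), RPS27L (0.959) and SPAG1 (0.948). For GPX2 the nearest included IL32, UGT1A6, HMGA2 and PLA2G4F, each above 0.999, all of them listed at 0 in at least 1 library, so that r there reflects little more than the difference between the lines.

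In H460 cells treated with 30 µM BPK29 for 12 h, changes of the members were small. The gene lengths recovered from the compound columns did not match those of the knockdown columns: SLC7A11 had 80 bases against 9648, and GGCT 74 against 1326. Values are therefore given as ratios to the mean of the 3 DMSO libraries. The lengths also set which genes reached 1 FPKM and how much the added 1 weighed in each log2 fold change and share of genes called below. The added fit on log2(RPM + 0.1) does not use them. Against DMSO, 2 of 8 members tested were higher and 4 lower, where 21.1% of 11461 genes were higher and 29.3% lower, and 0 members passed 1.5 fold, beside 0.838% higher and 1.53% lower of all genes. The balance over all genes turned with the scaling, from 2418 higher and 3359 lower to 3847 and 2203 on a common total and to 4117 and 2583 on RPM. On a common total 2 members were called lower, and on RPM 4 were called higher. Among those 4 was CHAC1, which reached 1 RPM only in its BPK29 libraries. GGCT was lowest, at 0.781 to 0.802 of the DMSO mean (log2 fold change -0.34, SE 0.028, limma adjusted p = 1.15e-05), followed by GPX1 at 0.82 to 0.849 (-0.25, SE 0.033, limma adjusted p = 1.95e-04). GSS was raised, at 1.16 to 1.19 of the DMSO mean (0.22, SE 0.033, limma adjusted p = 5.08e-04), and GCLC at 1.06 to 1.12 (0.13, SE 0.029, limma adjusted p = 4.99e-03). None of the 8 members tested overlapped its DMSO libraries, including those not called, so this does not set the named genes apart. The share of all genes without overlap was not counted.

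GCLM (-0.16) and GSR (-0.13) were called lower after BPK29, and neither call held after rescaling to a common total (limma adjusted p = 0.0592 and 0.103). Both calls held with median-ratio scaling and on RPM. The common total is a sum of FPKM and so also rests on the recovered lengths. SLC7A11 had a ratio of 1.03 to 1.04 (log2 fold change 0.05, limma adjusted p = 0.113); it was called higher at 0.12 on a common total, at 0.07 with median-ratio scaling and at 0.11 on RPM. GPX4 had a log2 fold change of -0.11 (95% interval -0.20 to -0.02, limma adjusted p = 0.0517). Each of the 8 members kept its sign against DMSO under each scaling. Of the related lists, NADPH supply had 0 of 6 higher and 3 lower after BPK29, led by TKT (-0.26). Cysteine and glutamate supply had 3 of 7 higher and 1 lower, led by CBS (0.55) and SLC3A2 (0.28).

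BPK9 at the same dose and time gave no call among the 8 members, and 0.00873% of all genes, a single one, passed. On log2(RPM + 0.1), 194 genes were higher and 67 lower in that comparison, and on a common total 5 and 2. The members' log2 fold changes against DMSO ran from -0.08 for GGCT (95% interval -0.14 to -0.02, limma adjusted p = 0.248) to 0.08 for GPX4 (95% interval -0.01 to 0.17, limma adjusted p = 0.414). At an unadjusted limma p under 0.05, 2 of the 8 members differed. The share of all genes at that threshold was not counted, so this number has no background beside it. BPK29 was then compared with BPK9 directly. GPX1 (-0.27), GGCT (-0.26), GPX4 (-0.18) and GSR (-0.13) were lower with BPK29 and GCLC (0.19) and GSS (0.17) higher, where 27.2% of all genes were lower and 19.7% higher. Over all genes 2258 were higher and 3121 lower, which became 3444 and 2195 on a common total and 3708 and 2582 on RPM. The GSR call was lost on a common total (-0.08, limma adjusted p = 0.0569) and held with median-ratio scaling and on RPM. GCLM (-0.10) was also called (limma adjusted p = 0.0441), but the call was lost without the filter, under both other scalings, and without any of 5 single libraries: BPK29 replicates 1, 2 and 3 and BPK9 replicates 2 and 3 (adjusted p 0.063 to 0.14). SLC7A11 differed by 0.03 (95% interval -0.02 to 0.09, limma adjusted p = 0.283), and was called higher with BPK29 on a common total (0.09, limma adjusted p = 8.43e-03) and on RPM (0.08, limma adjusted p = 1.89e-03).

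CHAC1 fell under the minimum of 1 FPKM in the compound columns, where its reads were few. DMSO libraries had 8, 21 and 6 reads of CHAC1, BPK29 libraries 28, 31 and 37, and BPK9 libraries 11, 11 and 7. All 3 BPK29 libraries exceeded all 6 others. The ratio of summed RPM was 2.71 for BPK29 over DMSO (95% interval 1.82 to 4.11, exact, for counting error only), 3.29 over BPK9 (2.16 to 5.18), and 0.822 for BPK9 over DMSO (0.485 to 1.38). DMSO replicate 2 held 21 of the 35 DMSO reads. Without it the ratio over DMSO was 4.32 for BPK29 (2.45 to 8.19) and 1.31 for BPK9 (0.671 to 2.68). A limma fit on log2(RPM + 0.1) without a filter was added after the data were seen. In it CHAC1 was higher with BPK29 than with DMSO by 1.42 on the log2 scale (SE 0.277, limma adjusted p = 1.29e-04). With a filter of 1 RPM in at least 3 libraries, CHAC1 entered only through its BPK29 libraries. GPX2 had 15 reads in all with DMSO, 2 with BPK29 and 14 with BPK9, a ratio of 0.132 for BPK29 over DMSO (95% interval 0.0146 to 0.566).

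**Figure D4:**
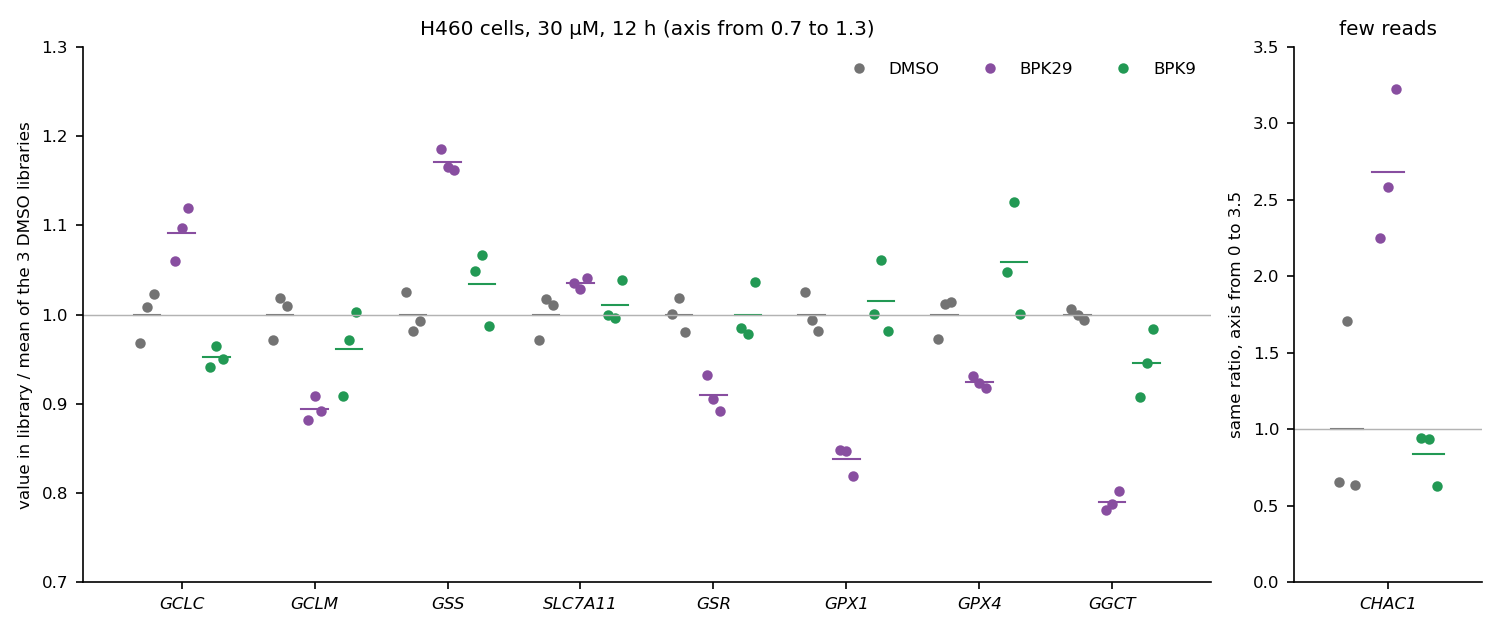
Each library's value divided by the mean of the 3 DMSO libraries, for 8 members (left, axis from 0.7 to 1.3) and for CHAC1 (right, axis from 0 to 3.5); points are libraries, short lines means, and GPX2, with 0 to 8 reads a library, is not drawn. BPK29 libraries of GGCT lie at 0.781 to 0.802 and those of GSS at 1.16 to 1.19, away from the DMSO points.

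The NR0B1 hairpin and BPK29 were applied at different times (72 h and 12 h) in separately normalised columns, so their values stand side by side with no comparison. GGCT was at -0.76 under shNR0B1 and -0.34 with BPK29, GSS at -0.22 and 0.22, and SLC7A11 at 0.77 and 0.05 (not called with BPK29). GCLC was at 0.21 and 0.13, and GCLM at -0.30 and -0.16 on the log2 scale. GPX4 was at 0.24 and -0.11 (not called with BPK29). GSR was at -0.04 and -0.13, and GPX1 at -0.08 and -0.25, neither called under shNR0B1. CHAC1 was at -1.12 under shNR0B1, and at 1.42 with BPK29 on log2(RPM + 0.1), from few reads.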

How the data were processed

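The members and the lists of related genes were chosen with earlier results of these data known. The authors deposited FPKM values for 23710 gene symbols in 27 RNA libraries; build hg19 and the tools featureCounts, STAR, HOMER, Bowtie2 and DESeq2 are named per the submitters' processing notes, without roles or versions. Per the labels' protocols, DNase-treated RNA went into TruSeq libraries. Whole reads were recovered from the FPKM steps for 100% of 17871 genes in the knockdown columns and 100% of 16211 in the compound columns (tolerance 0.02 reads). Compound columns use other gene lengths (53.5% of 12604 genes over 2 fold apart) and 28 symbols without a value there.

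Each comparison was fitted with limma 3.58.1 in R 4.3.3 on log2(FPKM + 1) with a variance trend, keeping genes at 1 FPKM or more in at least 3 fitted libraries. The 12 H460 and 6 H2122 knockdown libraries and the 9 compound libraries were fitted separately, and the interaction and control comparisons used 12 libraries of both lines. P-values were adjusted over all genes, calls needed an adjusted p under 0.05, and a second rule added 1.5 fold. Folds understate changes of low genes. The fit and the read recovery were tested on simulated data. Alternatives were a pseudocount of 0.1, no filter, a common total, median-ratio scaling, no trend, a replicate block, leaving out each library and, added after the data were seen, log2(RPM + 0.1). Replicate numbers paired the H2122 libraries by the data, with correlations of deviations of 0.13 to 0.21 in 3 of 3 same-numbered pairs. Genes named are the members, the targeted genes, up to 3 called genes per list and comparison with the largest change, and the 5 genes nearest to GCLM, SLC7A11, CHAC1 and GPX2. A few genes that this rule selects are not reported here. Promoters were read with Python 3.11.15. Peaks of the NR0B1 immunoprecipitation were not used here, for want of an annotation of their build. Intervals and floors cover counting error only.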

Additional observations from a re-analysis of the deposited data

Results flagged for a closer look

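For the 9 members that reached 1 FPKM in both lines the response to the NRF2 hairpin differed between H2122 (24 h) and H460 (72 h). The interaction term of limma had an adjusted p under 0.05, as it did for 71.6% of all 12798 genes tested. On the log2 scale, as H2122 minus H460, the difference was 3.67 for CHAC1, 0.88 for GPX4, 0.75 for GPX1 and 0.39 for GSS. It was -1.58 for GCLM, -0.78 for SLC7A11, -0.68 for GCLC, -0.43 for GSR and -0.20 for GGCT. The term of -1.46 for GPX2 rests on H2122 alone, through which the gene passed the filter, since H460 had at most 3 reads per library in these groups, and it says nothing of a response there. CHAC1, SLC7A11 and GPX4 moved in opposite directions in the 2 lines, with no overlap between knockdown and control libraries in either. The share of all genes that did the same was not counted. Line and time of knockdown cannot be told apart.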

How the results depend on the processing

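Of 108 member results, 92 kept their call under every alternative run, 13 changed call under at least 1, and 3 called results changed sign. These 3 changes of sign all came with a common total. They were GSS under shNRF2 in H2122 (0.014), and GSS (0.021) and GPX1 (0.047) between control libraries. Uncalled results that changed sign are not among these 3, such as GSR under shNR0B1 (-0.04, and 0.09 on a common total). With a common total, members called lower came to 1 for H2122 against H460 control, 2 for BPK29 against DMSO and 3 for BPK29 against BPK9. Genes called higher and lower then came to 3847 and 2203 for BPK29 against DMSO, 3444 were higher for BPK29 against BPK9, and 5 were higher and 2 lower for BPK9 against DMSO. On RPM (reads scaled to depth) (added later), members called higher came to 4 for BPK29 against DMSO and 4 against BPK9, with the filter and without. All genes called higher were then 4117 with and 4071 without the filter against DMSO, and 3708 and 3638 against BPK9. For BPK9 against DMSO that scale gave 194 higher and 67 lower with the filter, and 115 and 37 without. The count higher for BPK9 was 1 without the filter on FPKM and 1 with median-ratio scaling, and leaving out single libraries gave 0 to 1. The cause of these changes was not tested. In the H460 and compound libraries some same-numbered pairs of each 2 groups had a correlation of deviations of 0.1 or less. Over all 30 pairs, 14 were over 0.1, range -0.27 to 0.22, and in 19 the same number gave the highest correlation. It did so in 3 of 3 pairs of DMSO with BPK9 and of BPK29 with BPK9. A pairing of the H460 and compound libraries is therefore neither shown nor excluded. With the replicate block, 108 of 108 member results and 48 of 48 counts stayed as they were. CHAC1 and GPX2 in the compound libraries, and GPX2 in H460, are limited by depth.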
